A study of Mus musculus with 7 samples.

Results

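The genes described here start between 130 and 140 Mb of mouse chromosome 4 (NCBI37/mm9), upstream of an engineered deletion in band 4E2. Membership was set by position among the genes that the authors tested by RNA-seq, although the stretch itself was picked with earlier results of these data known. Ece1, E2f2 and Rpa2 were set aside, which left 145 of the 15531 tested genes. Polyadenylated RNA came from confluent passage 4 cultures of 7 independent primary mouse embryonic fibroblast (MEF) lines, each started from an embryo of day 13.5. The 4 Df/+Bl6 lines carried the Df chromosome, made in 129S5/SvEvBrd embryonic stem cells, and an intact C57BL/6J homologue. The 3 +129/+Bl6 lines were first generation hybrids of these strains without the deletion. The parents of the Df embryos were chimeric males that also carried the reciprocal duplication, Dp, and C57BL/6J females. According to the paper, the deletion was engineered in the stem cells and passed to the embryos by these males. No litter or batch was given for the lines.

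MEFs are a mixed culture from the embryo body, dominated by connective tissue cells. A heterozygous deletion removes a copy of each gene inside it, and the chromosome on either side keeps both copies, so that genes upstream of it are present at normal dose in both genotypes. The stretch upstream of 4E2 is a gene-dense part of the chromosome whose neighbours have no common function, with genes for splicing factors and chromatin proteins next to genes for lysosomal, mitochondrial and secreted enzymes.

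The values are the authors' mean normalized counts, that is, read pairs per gene divided by a DESeq size factor and averaged over the lines of a genotype. A gene is called listed when the authors' table holds it, which means that their DESeq test passed a false discovery rate of 0.05. No value per line was used, so the spread between lines, a standard error and the overlap of the lines between genotypes cannot be given for any gene, and genes that were tested but are not listed have no value. In bulk RNA, fewer cells of a type and less RNA per cell cannot be told apart. Of 14 fibroblast marker genes all were tested and only Fn1 is listed (log2 ratio -0.69). Of 24 markers of 7 other cell types 22 were tested, among them all 4 of macrophages, endothelium and Schwann cells, and 3 are listed, all of Schwann cells, Sox10 and Erbb3 among them, which were lower in Df/+Bl6 (log2 ratios from -1.53 to -1.09). Over all tested genes 8.67% are listed, 5.13% as higher and 3.54% as lower. A list of 16 proliferation genes was added later, with results of these data known. All 16, among them Mki67, Pcna and Mcm2, are listed as higher in Df/+Bl6, with log2 ratios from 0.67 to 1.72. The part of these differences in the values of the chromosome 4 genes was not tested.

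Of the 145 genes, 22 are listed in the combined comparison, which uses reads of both alleles (15.2%, against 8.67% of all tested genes). Expression was higher in Df/+Bl6 for 9 of them (6.21%, against 5.13% of all tested genes) and lower for 13 (8.97%, against 3.54%). The share of the listed genes that were lower was thus 59.1% here and 40.9% over all listed genes. Whether these shares differ beyond chance was not tested, and neighbouring genes of the same lines do not replicate the genotype. The median log2 ratio of Df/+Bl6 over +129/+Bl6 was 0.84 for the 9 genes that rose, against 0.80 for all genes that rose, and -0.86 for the 13 that fell, against -0.81 for all genes that fell. Every listed gene had to differ, so these medians describe the sizes only.

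**Figure D1:**
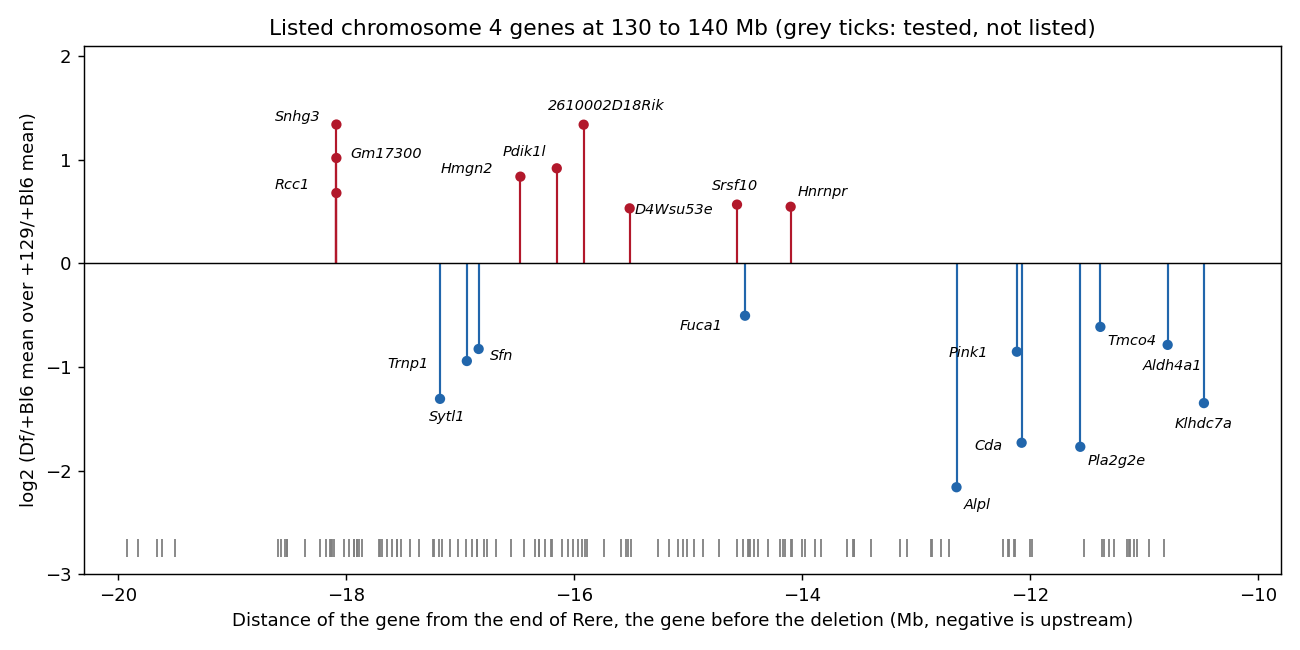
Log2 ratio of the genotype means (vertical axis) of 20 of the 22 listed genes against their distance in Mb from the end of Rere, the gene before the deletion (horizontal axis). Red points are higher and blue points lower in Df/+Bl6, and grey ticks mark tested genes that are not listed. Both directions alternate in the part far from the deletion. The 7 plotted genes nearest to it, which are those after the last that rose, all lie below 0, with Alpl lowest at -2.16.

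In chromosome order the listed genes run from Rcc1, which ends 18.1 Mb before the end of Rere, to Klhdc7a, which ends 10.5 Mb before it. The first 17 tested genes, over 1.89 Mb, hold no listed gene. Then follow Rcc1, Snhg3 and Gm17300, all higher, and Sytl1, Trnp1 and Sfn, all lower. Of the genes named between these and Alpl, Hmgn2, Pdik1l, 2610002D18Rik (later named Aunip), D4Wsu53e (later named Rsrp1) and Srsf10 were higher, Fuca1 lower and Hnrnpr higher. Beyond Hnrnpr lie 43 tested genes, and the 7 that are listed, Alpl, Pink1, Cda, Pla2g2e, Tmco4, Aldh4a1 and Klhdc7a, were all lower in Df/+Bl6. Hnrnpr is the last listed gene of the stretch that rose, so the shared direction beyond it follows from where the cut was placed. Of all tested genes 3.54% were listed as lower. Between Hnrnpr and Alpl, 17 tested genes over 1.40 Mb have no listed gene among them. Of the 21 pairs of consecutive listed genes 14 moved in the same direction and 7 in opposite directions. The 14 include the pairs among Rcc1, Snhg3 and Gm17300, which overlap and are not separate observations. Whether these counts differ from chance was not tested.

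Divided in the middle, the stretch has a proximal part of 84 tested genes with 7 higher and 4 lower, and a distal part, nearer to the deletion, of 61 with 2 higher and 9 lower. The share of tested genes that fell was 4.76% in the proximal and 14.8% in the distal part, against 3.54% of all tested genes. The share that rose was 8.33% and 3.28%, against 5.13%. The 7 proximal rises include Rcc1, Snhg3 and Gm17300, which overlap and are not separate observations. The difference between the parts was not tested.

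To see whether genes that moved in the same direction share letters at their starts, the promoters of the listed genes were searched for short motifs. RefSeq (GRCm38.p6) gave entries for 19 of the 23 genes listed in any comparison, and the 250 bases before each start were read. Searched on both strands were GCGGGA, part of the E2F site of cell cycle genes, and TTTGAA, part of the cell cycle homology region. CCAAT, the palindrome CACGTG and TATAAA, the letters of a TATA box, were searched too. A match counted anywhere in the 250 bases, and no pair of these motifs overlaps in the printed sequences. GCGGGA was in 5 of 10 promoters of the genes that rose (some have more than a single start), in 2 of 13 of those that fell, and in 16.9% of the 32851 promoters of the table. The median GC content was 62.6% for the genes that rose, 56.0% for those that fell and 52.4% in the table. CCAAT was in 5 of 10, 5 of 13 and 33.8%, and TTTGAA in 3 of 10, 3 of 13 and 16.0%. TATAAA was in 0 of 10, 1 of 13 and 12.4%, and CACGTG in 1 of 10, 0 of 13 and 6.02%. The promoters of the table include those of genes that were not tested here. Whether the shares differ beyond chance or follow the GC content was not tested. A match of letters is not a binding site, and its absence says nothing about a factor.

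Sequences are shown for genes that rose and hold GCGGGA, Hmgn2 (chr4:133967992-133968241, minus strand), Rsrp1, the later name of D4Wsu53e (chr4:134923375-134923624, plus strand), and Srsf10 (chr4:135855821-135856070, plus strand), for Trnp1, which fell and holds it too (chr4:133498551-133498800, minus strand), and for the start of Alpl that holds TATAAA (chr4:137766476-137766725, minus strand). These coordinates are of GRCm38.p6, while all gene positions are of NCBI37/mm9, and neither was converted. The sequences are written 5' to 3' towards the gene, with every match to a searched motif or its reverse complement in capitals.
Hmgn2: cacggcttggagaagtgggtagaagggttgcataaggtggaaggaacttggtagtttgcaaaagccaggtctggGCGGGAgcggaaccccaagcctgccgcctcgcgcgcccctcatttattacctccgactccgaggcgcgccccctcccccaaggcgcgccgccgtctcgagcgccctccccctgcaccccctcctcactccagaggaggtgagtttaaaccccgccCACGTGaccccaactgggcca
Rsrp1: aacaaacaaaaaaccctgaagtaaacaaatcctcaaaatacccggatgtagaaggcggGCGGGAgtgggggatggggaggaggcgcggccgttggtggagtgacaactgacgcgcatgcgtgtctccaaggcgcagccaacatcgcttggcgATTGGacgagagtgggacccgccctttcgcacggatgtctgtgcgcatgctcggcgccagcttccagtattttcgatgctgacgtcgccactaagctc
Srsf10: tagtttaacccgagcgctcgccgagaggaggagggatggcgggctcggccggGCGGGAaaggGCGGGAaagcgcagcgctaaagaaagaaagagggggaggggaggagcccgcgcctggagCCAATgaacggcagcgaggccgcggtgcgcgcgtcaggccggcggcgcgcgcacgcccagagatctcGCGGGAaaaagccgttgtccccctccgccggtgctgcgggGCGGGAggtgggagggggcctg
Trnp1: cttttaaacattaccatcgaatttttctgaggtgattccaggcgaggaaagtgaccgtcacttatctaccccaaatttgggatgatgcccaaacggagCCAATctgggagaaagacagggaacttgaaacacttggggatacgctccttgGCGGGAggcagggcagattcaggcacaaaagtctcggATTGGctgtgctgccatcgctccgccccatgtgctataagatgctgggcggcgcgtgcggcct
Alpl: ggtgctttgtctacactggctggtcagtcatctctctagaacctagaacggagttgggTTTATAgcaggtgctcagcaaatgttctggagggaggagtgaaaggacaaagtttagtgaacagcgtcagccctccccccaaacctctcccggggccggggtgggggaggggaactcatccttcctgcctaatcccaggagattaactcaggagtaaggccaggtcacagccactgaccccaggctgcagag
In the sequence of Srsf10 the letters GCGGGA occur 4 times, and in that of Hmgn2 a CACGTG stands near the start. In that of Alpl the match is the reverse complement of TATAAA.

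The genes that rose include several that act on chromatin and RNA. Rcc1 (ENSMUSG00000028896), the chromatin-bound exchange factor for the GTPase Ran, had a mean normalized count of 5165 in Df/+Bl6 and 3223 in +129/+Bl6 (log2 ratio 0.68). Snhg3, a host gene of small nucleolar RNAs, had 198 and 78.2 (log2 ratio 1.34). Gm17300, annotated as a long intergenic RNA, had 1072 and 529 (log2 ratio 1.02). These genes cannot be taken as separate observations. On NCBI37/mm9, Rcc1 lies on the minus strand at 131887834 to 131909520 and contains 5592 bp of Snhg3, whose 5' end is 81 bp from its own, while Gm17300 lies on the plus strand and its whole length of 1611 bp is inside both. The RefSeq starts used for the motifs are further apart. On GRCm38.p6 the promoter bases lie at 132345751 to 132346000 for Rcc1 and at 132353687 to 132353936 for Snhg3. The libraries were stranded, but whether the counting used the strand is not given in the sources used here. Counted as a single gene, they leave 20 listed genes, 7 of them higher.

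Hmgn2 (ENSMUSG00000003038), a nucleosome-binding protein of the HMGN family, had a mean normalized count of 6969 in Df/+Bl6 and 3898 in +129/+Bl6, which is 1.79-fold higher (log2 ratio 0.84). Its promoter sequence holds GCGGGA and CACGTG. The gene has many processed copies in the genome, and the authors kept read pairs with a single best location. 2610002D18Rik (ENSMUSG00000078521), whose product Aunip binds Aurora kinase A and ninein, had 561 and 222 (log2 ratio 1.34). It was the largest rise of the stretch outside the Rcc1 locus, and 9.05% of all genes that rose changed more. Pdik1l, which encodes a kinase, had 1054 and 557 (log2 ratio 0.92).

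Smaller rises were those of Hnrnpr, Srsf10 and D4Wsu53e. Hnrnpr (ENSMUSG00000066037), a heterogeneous nuclear ribonucleoprotein, had a mean normalized count of 14122 in Df/+Bl6 and 9663 in +129/+Bl6 (log2 ratio 0.55). Srsf10, a splicing factor of the SR family, had 6699 and 4518 (log2 ratio 0.57), and D4Wsu53e, an arginine and serine rich protein, had 9992 and 6910 (log2 ratio 0.53). These are among the smallest listed rises, since at least 92.1% of all genes that rose changed more than each of them.

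The largest fall was that of Alpl (ENSMUSG00000028766), the tissue-nonspecific alkaline phosphatase required for bone mineralization. It had a mean normalized count of 164 in Df/+Bl6 against 734 in +129/+Bl6, 4.47-fold lower with the deletion (log2 ratio -2.16), and 24 of the 550 genes that fell changed more. On NCBI37/mm9, Alpl lies on the minus strand at 137297648 to 137352299, 12.6 Mb before the end of Rere. Pink1, the kinase that marks damaged mitochondria for removal, and Cda, a cytidine deaminase of pyrimidine salvage, are 12.1 kb apart with no tested gene between them. Pink1 had 2507 in Df/+Bl6 and 4525 in +129/+Bl6 (log2 ratio -0.85), and Cda 44.3 and 147 (log2 ratio -1.73). Pla2g2e, a secreted phospholipase A2, had 34.0 and 116 (log2 ratio -1.77). The means of Cda and Pla2g2e are the lowest of the listed genes in Df/+Bl6, and without a value per line their counting error is unknown.

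Tmco4, a transmembrane and coiled-coil protein, had 945 in Df/+Bl6 and 1445 in +129/+Bl6 (log2 ratio -0.61). Aldh4a1, the mitochondrial dehydrogenase that completes proline breakdown, had 2707 and 4666 (log2 ratio -0.79). Klhdc7a, the last listed gene of the stretch towards the deletion, had 255 and 650 (log2 ratio -1.35). It contains a microRNA gene, Mir2139, on its own strand.

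Among the genes that fell nearer to the start of the stretch, Sytl1 (ENSMUSG00000028860), an effector of Rab27 in vesicle transport, had a mean normalized count of 383 in Df/+Bl6 and 948 in +129/+Bl6 (log2 ratio -1.31). Trnp1, a nuclear protein studied in neural progenitors, had 1753 and 3366 (log2 ratio -0.94). Sfn, the 14-3-3 protein sigma known from epithelial cells and as a p53 target, had 842 and 1492 (log2 ratio -0.83). Fuca1, the lysosomal alpha-L-fucosidase, had 9786 and 13881 (log2 ratio -0.50).

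**Figure D2:**
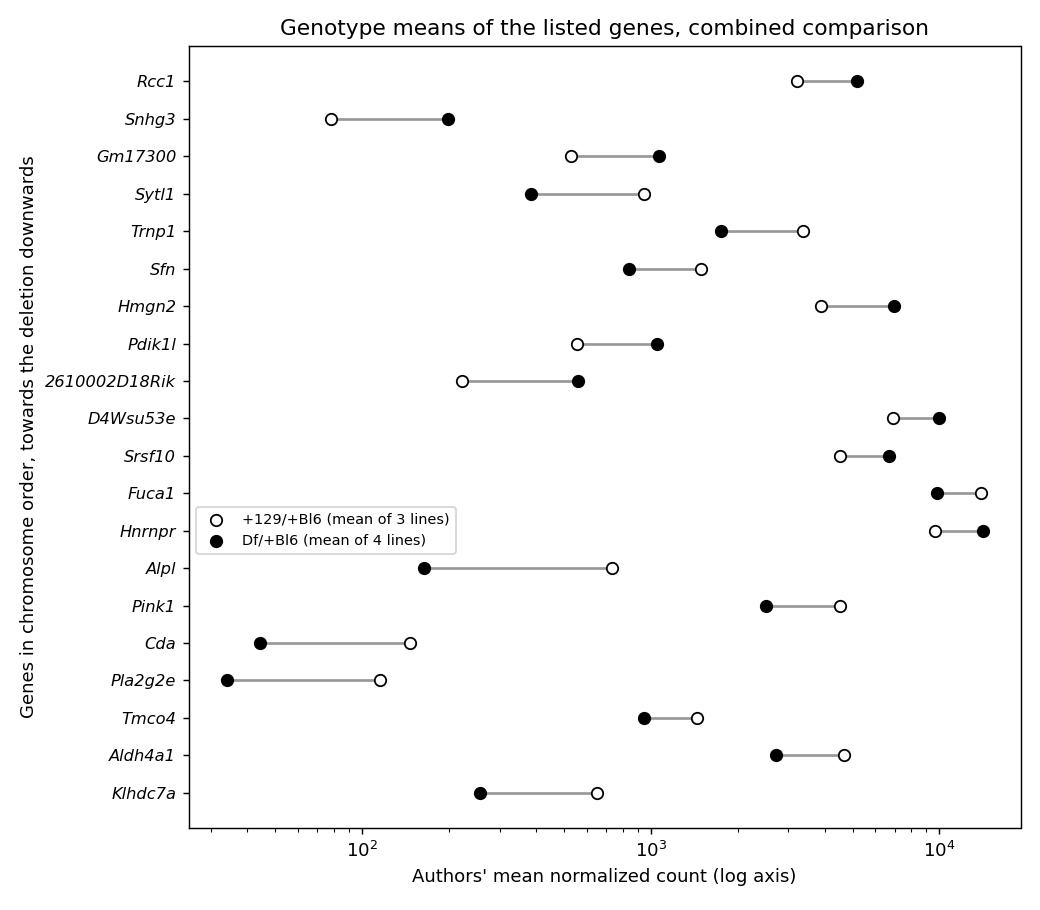
Authors' mean normalized count on a log axis (horizontal) for 20 of the 22 listed genes in chromosome order (vertical). Filled circles are the mean of the 4 Df/+Bl6 lines and open circles that of the 3 +129/+Bl6 lines, with no error because values per line were not used. The filled circle is to the left of the open one for each gene from Alpl downwards, and the widest gap is that of Alpl.

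To set levels side by side, the means were divided by the length of the longest annotated transcript. On this scale of mean normalized count per kb, the highest level in +129/+Bl6 was that of Fuca1 (5497), Hnrnpr had 3597, and the lowest was that of Klhdc7a (83.2). The highest in Df/+Bl6 were Hnrnpr at 5258 per kb, Fuca1 at 3876 and D4Wsu53e at 3275. Whether neighbours in these orders differ beyond the spread between lines is unknown.

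The tested genes were also grouped into lists by known role, which hold 15 of the 22 listed genes. Snhg3, Gm17300, D4Wsu53e, Trnp1, Sfn, Pla2g2e and Klhdc7a are in none of them. The lists were written with earlier results of these data known, and each is described by its counts. Of all tested genes 8.67% are listed, 5.13% as higher and 3.54% as lower. The chromatin and chromosome list has 8 tested genes, of which 3 rose (Rcc1, Hmgn2 and 2610002D18Rik) and none fell. It also takes in proteins of the centrosome, namely 2610002D18Rik and Ccdc21, and Ccdc21, Arid1a, Kdm1a and Hp1bp3 are not listed. Of 11 tested RNA processing genes 2 rose (Srsf10 and Hnrnpr). Of the 23 tested genes counted in the mitochondria and metabolism list 7 fell and none rose. A further gene written into this list, Minos1, was missed by the match of names. The stretch holds it as 2310028O11Rik (later named Micos10), which was tested and is not listed. They include Pink1, Aldh4a1, Fuca1, Cda and Tmco4, although Tmco4 is a membrane protein with no assigned metabolic role, so that the count is of the list and not of metabolic genes. Those not listed include Ddost and Mul1.

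None of the 12 transcription factors and general transcription genes matched by name and tested is listed, among them Id3, Runx3 and Taf12. Neither is any of the 8 immune cell genes so matched and tested, among them the complement genes C1qa, C1qb and C1qc. E2f2 was set aside and is not in these counts. No match was found for Zfp436 and Themis2, written into these lists. Emc1, of the translation list, was matched to 2700016F22Rik, which was not tested. The counts may thus miss tested genes annotated under other names. The combined test gave 1 listed gene among 16 for the cytoskeleton, small GTPases and vesicles (Sytl1), 1 among 10 in the list of matrix, receptors and ligands (Alpl), which also holds Grhl3, a gene of the transcription list too, and 1 among 13 for translation, kinases and ubiquitin (Pdik1l). Cdc42, Capzb, Wnt4, Hspg2 and Rpl11 are not listed. Of the skeletal muscle genes only Trim63 was tested, and it is not listed. A gene that is not listed is not shown to be unchanged. At the 8.67% of all tested genes, lists of this size would hold few listed genes.

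**Figure D3:**
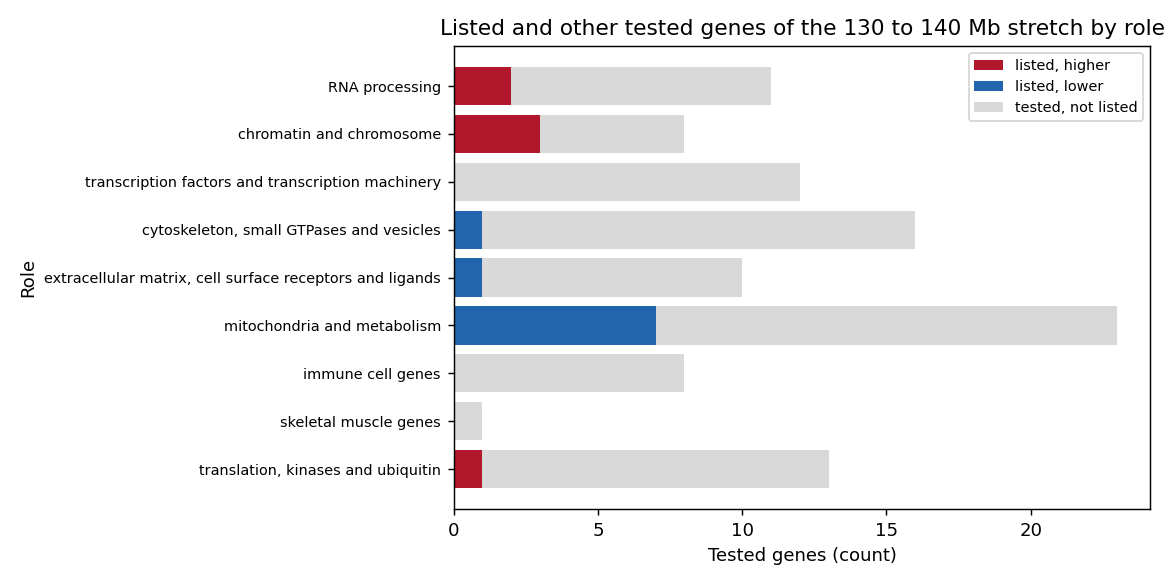
Number of tested genes of the stretch (horizontal axis) in each list by known role (vertical axis). Red marks genes listed as higher and blue as lower in Df/+Bl6, and grey those tested but not listed. The 7 listed genes of the list named mitochondria and metabolism, Tmco4 among them, are lower, and the 5 of the RNA processing and chromatin and chromosome lists higher. Grhl3 is in 2 of the lists, and 2310028O11Rik, tested and not listed, is missing from the bar of mitochondria and metabolism. Other genes whose list names found no match are not in the bars either.

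In the comparison of the 129S5/SvEvBrd allele, the copy that lies on the Df chromosome in Df/+Bl6, 6 of the 145 genes are listed (4.14%, against 1.65% of the 15531 genes). Of these, 3 were higher and 3 lower, 2.07% each, against 0.856% and 0.792% of all genes. In that of the C57BL/6J allele, on the intact chromosome, 6 are also listed (4.14%, against 2.09%), again 3 higher and 3 lower, 2.07% each, against 1.16% and 0.934%. Which genes entered the test of an allele is not given in the sources used here, and these shares take the genes of the combined comparison as their base. The alleles share 5 genes, among them Sytl1, Trnp1, Pdik1l and 2610002D18Rik, and each moved in the same direction at both. The allelic comparisons use the same lines, so that these values are not independent of each other or of the combined ones.

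The 129S5/SvEvBrd allele of Sytl1 had a mean normalized count of 153 in Df/+Bl6 and 399 in +129/+Bl6 (log2 ratio -1.38), and the C57BL/6J allele 177 and 433 (log2 ratio -1.29). The log2 ratio of Trnp1 was -0.96 at the 129S5/SvEvBrd and -0.99 at the C57BL/6J allele. Both genes were thus lower both on the chromosome with the deletion and on the intact one. The 129S5/SvEvBrd allele of Pdik1l had 162 and 77.5 (log2 ratio 1.07) and the C57BL/6J allele 228 and 99.5 (log2 ratio 1.19). The widest difference between alleles was that of 2610002D18Rik, with a log2 ratio of 1.51 at the 129S5/SvEvBrd and 1.24 at the C57BL/6J allele, a difference of 0.26. The differences of the other 4 genes were between -0.13 and 0.03. None of these differences could be tested without values per line.

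Stmn1 and Hmgn2 are listed for a single allele. Stmn1, the microtubule-destabilizing protein stathmin, is listed for the 129S5/SvEvBrd allele, with 159 in Df/+Bl6 and 70.5 in +129/+Bl6 (log2 ratio 1.18), and is not listed in the combined comparison. Hmgn2 is listed for the C57BL/6J allele, with 1033 and 508 (log2 ratio 1.03). The other allele of either gene has no value, so no difference between alleles is shown. Levels are not comparable between the tables, which were normalized separately. For 2610002D18Rik the C57BL/6J mean of 881 in Df/+Bl6 is above the combined mean of 561.

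**Figure D4:**
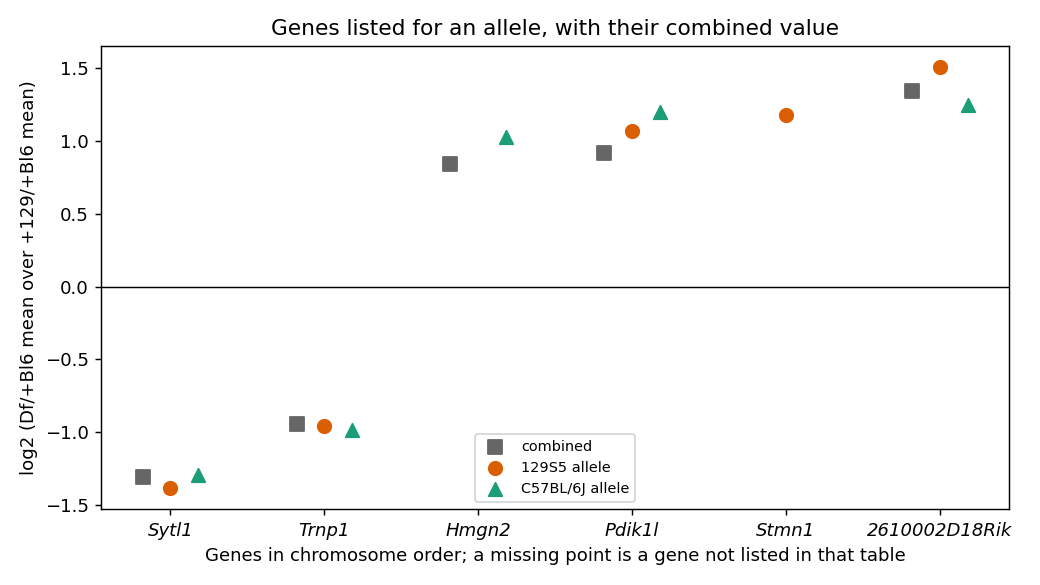
Log2 ratio of the genotype means (vertical axis) for 6 of the 7 genes listed for an allele, in chromosome order (horizontal axis). Squares give the combined comparison, circles the 129S5/SvEvBrd allele and triangles the C57BL/6J allele, and a missing symbol is a gene not listed there. The symbols of a gene lie on the same side of 0 throughout, with the widest spread between alleles for 2610002D18Rik.

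Other properties of the genes did not enter their choice. The annotation places 306 genes in the stretch without the 3 set aside, and 161 of them were not analysed here, among them all 15 microRNA and 14 small nucleolar RNA genes. Of the 174 protein-coding genes 20 are listed and 40 were not analysed here. Pax7, Lin28a and Matn1, genes of muscle progenitors, early embryonic cells and cartilage, are among those not analysed here. The listed genes had a median span of 12900 bp and a median longest transcript of 2430 bp, and the 123 other tested genes 21550 and 3053 bp. Another annotated gene overlaps 4 of the 22 listed genes (18.2%) and 42 of the 123 others (34.1%). Of the listed genes 10 are on the plus and 12 on the minus strand. Those that rose divide into 5 and 4, and those that fell into 5 and 8.

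Along the chromosome, the neighbouring 10 Mb windows had smaller shares of listed genes. The window from 120 to 130 Mb had 9 of 126 tested genes (7.14%), 3 higher and 6 lower, and that from 140 to 150 Mb 7 of 100 (7.0%), 1 higher and 6 lower. The window from 150 to 160 Mb, which holds the deletion, had 28 of 85 (32.9%), all of them lower. Up to 120 Mb, windows with at least 30 tested genes had between 7.14% and 16.1% listed, so the 15.2% at 130 to 140 Mb was not the highest. For genes that fell, the 8.97% at 130 to 140 Mb was the highest share of any window apart from that of the deletion, in a stretch that was picked with such results known. The windows were described and not tested.

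**Figure D5:**
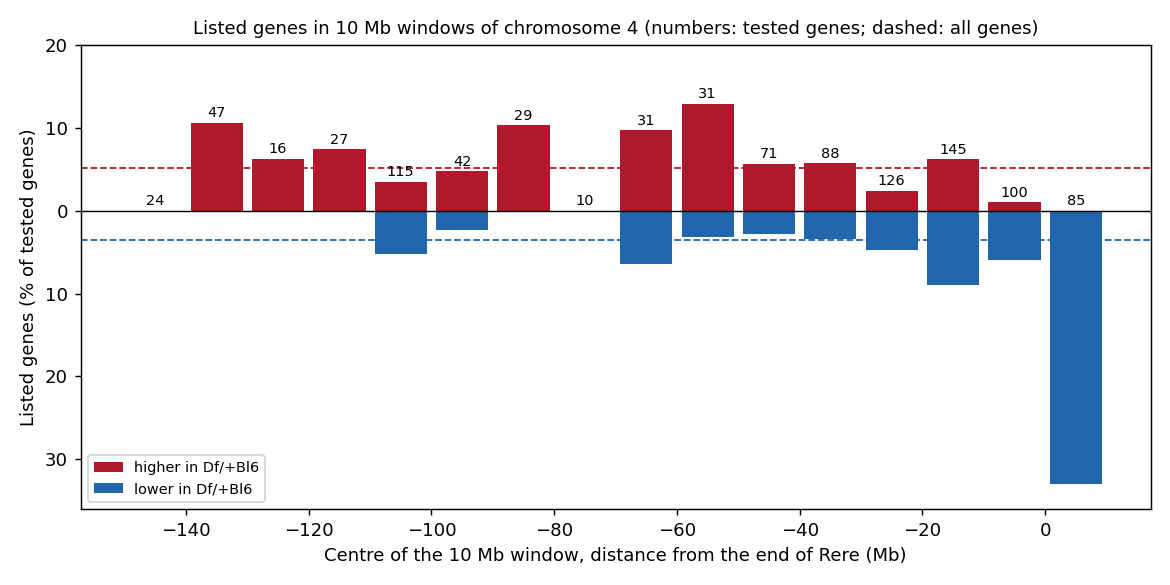
Share of tested genes that are listed (vertical axis, higher in Df/+Bl6 upwards in red, lower downwards in blue) in 10 Mb windows of chromosome 4, placed by the distance of their centre from the end of Rere in Mb (horizontal axis). Numbers are tested genes and dashed lines the shares over all tested genes, 5.13% and 3.54%. The window centred at -15.0 Mb has the largest downward bar outside that of the deletion.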

How the data were processed

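RNA-seq libraries of 7 MEF lines (4 Df/+Bl6 and 3 +129/+Bl6) were made from polyA+ RNA with a stranded paired-end protocol. Per the paper's methods, the authors used GSNAP without mismatches on transcript sequences of C57BL/6J (Ensembl release 72, GRCm38/mm10) and of 129S5/SvEvBrd, taking the longest transcript per gene. Pairs counted if their best location was unique and both reads fell in 1 gene. The authors required 10 reads per allele and compared genotypes with DESeq. The deposited signal values are mean normalized counts of each genotype, for both alleles combined and for each allele, in tables of the genes past an FDR of 0.05. These tables also hold the fold changes, p-values and adjusted p-values of the authors, which were not used. Presence in a table was taken as the authors' call.

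A further deposited file has no header and 9 columns of values for the 7 lines. No name ties a column to a line, so the columns were not used, and its gene identifiers served as the list of tested genes. The column for Df/+Bl6 was recognised by its weight of 4 lines in the overall mean. Depth, SD and standard errors are unknown, and the planned fit over lines was not run. The tables of the 129S5/SvEvBrd and C57BL/6J alleles hold 257 and 326 genes, of which 1 each is not in the list of tested genes and was left out of the shares.

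Log2 ratios were computed from the means without a pseudocount. Positions and symbols came from GENCODE for NCBI37/mm9, in which 568 of the 15531 identifiers have no entry. Later symbols came from RefSeq. The rule written with the design names every gene of the stretch listed in any table, of which some are not reported here, and other genes are named as neighbours or members of the lists by role. The stretch and the lists were chosen with earlier results of these data known, and the list of proliferation genes was added later. The code for counting was run on simulated means with known directions, which checks neither the calls nor the match of names. Python 3.11.15, numpy 2.4.6, pandas 2.3.3 and matplotlib 3.10.9 were used.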

Additional observations from a re-analysis of the deposited data

How the results depend on the processing

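The number of listed genes at 130 to 140 Mb in the combined comparison, 22, lay between 18 and 24 when gene midpoints set the membership, when Ece1, E2f2 and Rpa2 were kept, when genes overlapping another were left out, when a mean of at least 100 was required and, in settings chosen after seeing the data, when the Rcc1 locus was counted as 1 gene or the stretch was moved by 1 Mb. With changes of at least 1 on the log2 scale it was 8, of which 3 were higher and 5 lower, since smaller changes were not counted. The median log2 ratio of -0.58 was -0.70 without the 4 overlapping genes, 3 of which were higher. Pseudocounts of 1 and 10 left it at -0.58. With the middle boundary moved by 1 Mb towards the centromere or towards the deletion, 10 and 7 genes of the distal part were lower, with 4 and 0 higher. The counts for the alleles, 6 each, lay between 4 and 6. No paired analysis was possible because no labels pair the lines and no value per line was used, and for the latter reason leaving out lines was not run. The table limits every statement to genes past the authors' threshold, and the depth behind the means is unknown.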
